A study of Rattus norvegicus with 4 samples.

Results

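A set of 9 genes for subunits of voltage-gated calcium channels were followed across spatial transcriptomes of rat trigeminal tissue. They were the rows of the deposited gene table with the symbols Cacna1a, Cacna1b, Cacna1c, Cacna1h, Cacna2d1, Cacna2d2, Cacna2d3, Cacnb3 and Cacnb4, which makes 9 of 32623 genes, and each had UMIs (unique molecular identifiers, counted RNA molecules) in all 4 capture areas. The rule that picks them uses symbols alone, although the list was drawn up with earlier results of these data known.

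A voltage-gated calcium channel is built around a pore-forming α1 subunit, with a cytoplasmic β subunit and an extracellular α2δ subunit that set how many channels reach the membrane and how they gate. In sensory neurons, the channels turn action potentials into calcium entry that drives transmitter release at the central terminals, excitability of the soma and calcium-dependent transcription. The α2δ proteins encoded by Cacna2d1 and Cacna2d2 bind gabapentin and pregabalin, drugs given for neuropathic pain, and Cacna2d1 is known to rise in sensory neurons after peripheral nerve injury.

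Visium arrays captured RNA in spots, each a small region that may hold several cells or part of one. All rats were of genotype Wild type, and the methods give adult male Sprague–Dawley animals. Areas TN1, TN2 and TN3 held trigeminal root, ganglion and proximal branches from the side of the mechanical compression in the TN (trigeminal neuralgia) model, each area from a different animal. The single HC (healthy control) area held tissue of 2 animals together. The series description takes HC from the healthy side of TN animals, whereas the methods call the controls sham-operated, so TN and HC may be opposite sides of the same rats. With 1 HC area, the spread behind every TN against HC test came from the 3 TN areas, and condition and capture area cannot be told apart.

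The 4 areas held 1256 to 2013 spots and 23546025 to 41335930 UMIs, with a median of 9487 UMIs per spot in TN1 and of 30808 in TN2. Of 3573 barcode sequences, 2337 occurred on 2 or more areas, where the area suffix kept them apart. Regions were rebuilt by clustering the spots without the calcium channel genes and were named from marker lists. Neuron-rich spots, with the sensory neuron markers in the lead, numbered 202, 366 and 166 in TN1, TN2 and TN3 and 672 in HC. Brainstem spots, led by inhibitory neuron genes such as Slc6a5 and Slc32a1, lay in TN1 (426) and TN2 (129) alone, although the label names trigeminal nerve. Nerve spots, led by peripheral myelin genes such as Prx, numbered 409 in TN1 and 382 in TN3 but 12 in TN2 and 17 in HC. The other regions were central myelin, astrocyte, connective tissue, and blood and bone. Cluster 4 (peripheral myelin and sensory neuron markers at similar scores) and cluster 5 (connective tissue and peripheral myelin, in TN2 and TN3) stayed unnamed. Levels are given as CPM (counts scaled to the total UMIs of the region in that area), and regions with fewer than 20 spots in an area were left out of means. Because regions were made from the same spots, differences between them are described and not tested, and levels are compared between regions for a gene, not between genes.

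Among the pore-forming subunits, the presynaptic channel genes followed neurons. Cacna1b, the N-type pore subunit of sensory nerve terminals, stood at 52.6 CPM ± 5.41 (SD, n = 4 areas) in neuron-rich spots and at 35.8 CPM ± 8.86 (SD, n = 4) in cluster 4, ranges that overlapped. It was lower in brainstem, at 25.1 CPM ± 1.88 (SD, n = 2), and lower again in nerve of TN1 and TN3, at 8.19 CPM ± 0.117 (SD, n = 2). Cacna1a, the P/Q-type pore subunit, was nearly as high in brainstem (49.4 CPM in TN1 and 43.9 CPM in TN2) as in neuron-rich spots. There it stood at 51.3 CPM ± 4.71 (SD, n = 4). Its lowest mean, 15.5 CPM ± 5.14 (SD, n = 4), was in central myelin. Over areas, brainstem thus overlapped neuron-rich spots in Cacna1a but not in Cacna1b. Within an area, brainstem was the lower in Cacna1a. When the areas were integrated before clustering, it held 51.1 against 57.9 CPM in TN1 and 43.9 against 48.0 CPM in TN2.

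Cacna1c, the L-type pore subunit that also serves smooth muscle and heart, had the opposite layout. Its highest mean was in nerve, with 36.8 CPM in TN1 and 50.3 CPM in TN3, followed by cluster 5 with 28.8 CPM in TN2 and 30.5 CPM in TN3. The few nerve spots of TN2 and HC gave 53.4 and 55.8 CPM from 19 and 12 UMIs. Neuron-rich spots held 14.7 CPM ± 3.40 (SD, n = 4), brainstem 6.23 CPM ± 0.326 (SD, n = 2) and central myelin 4.34 CPM ± 2.95 (SD, n = 4). The ranges of nerve (TN1 and TN3), cluster 5 and cluster 4 did not overlap one another, whereas cluster 4 (17.1 to 27.1 CPM) and neuron-rich spots (11.1 to 19.1 CPM) did. Cacna1h, the T-type pore subunit that opens at low voltage in sensory neurons, was again highest in neuron-rich spots, at 15.1 CPM ± 6.06 (SD, n = 4), and in cluster 4, at 14.7 CPM ± 7.64 (SD, n = 4). All other regions averaged below 6 CPM, and TN1 and HC were above TN2 and TN3 in both neuron-bearing regions.

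The α2δ genes differed in their layout. Cacna2d3, an α2δ gene needed for normal nociception, stood at 22.5 CPM ± 8.59 (SD, n = 4) in neuron-rich spots, at 17.2 CPM ± 0.833 (SD, n = 2) in brainstem and at 2.60 CPM ± 0.0476 (SD, n = 2) in nerve. Cacna2d1 had its highest mean in neuron-rich spots, at 11.99 CPM ± 6.81 (SD, n = 4), whereas brainstem, also rich in neurons, held 2.64 CPM ± 1.0 (SD, n = 2), close to nerve (3.11 CPM ± 1.25, SD, n = 2), and central myelin 1.96 CPM ± 0.836 (SD, n = 4). That high mean came from the TN areas, since neuron-rich spots of HC held 5.12 CPM. When the areas were integrated before clustering, HC held 4.81 CPM in neuron-rich spots and 4.98 CPM in nerve. Cacna2d2 was near its detection limit, with 20 to 52 UMIs in each whole TN area and 37 in HC, and no order of regions was read from it. Of the β subunits, Cacnb3, which pairs with the N-type channel in sensory neurons, was about equal in neuron-rich spots (309 CPM ± 66.0, SD, n = 4) and cluster 4 (301 CPM ± 85.7, SD, n = 4). It was at 139 CPM ± 34.4 (SD, n = 2) in nerve of TN1 and TN3 and at 61.9 CPM ± 1.49 (SD, n = 2) in brainstem. Cacnb4, the β subunit known from cerebellar neurons, had its highest mean in brainstem (4.88 CPM ± 0.410, SD, n = 2, from 42 UMIs), just above the 3.85 CPM ± 0.0752 (SD, n = 4) of neuron-rich spots.

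Nerve means depended most on the clustering, and those above come from TN1 and TN3 alone. With 8 clusters, 12 clusters or integrated areas, which each place 20 or more HC spots in nerve, Cacna1b there was at 16.3, 13.8 and 15.5 CPM, and Cacna2d3 was at 4.22, 5.85 and 5.35 CPM. Cacna1h reached 7.52 CPM and Cacnb3 211 CPM with 8 clusters. With integrated areas, HC nerve spots held 383 CPM of Cacnb3 and 34.5 CPM of Cacna1b, against 380 and 49.4 CPM in HC neuron-rich spots. Nerve spots of TN1, TN2 and TN3 held 173, 117 and 90.9 CPM of Cacnb3. Of Cacna1b they held 8.11, 12.1 and 7.18 CPM. The mean Cacna1c level of nerve moved by less than its SD under these settings. With integrated areas, though, HC nerve spots held 26.5 CPM of Cacna1c, within the range given above for cluster 4.

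**Figure D1:**
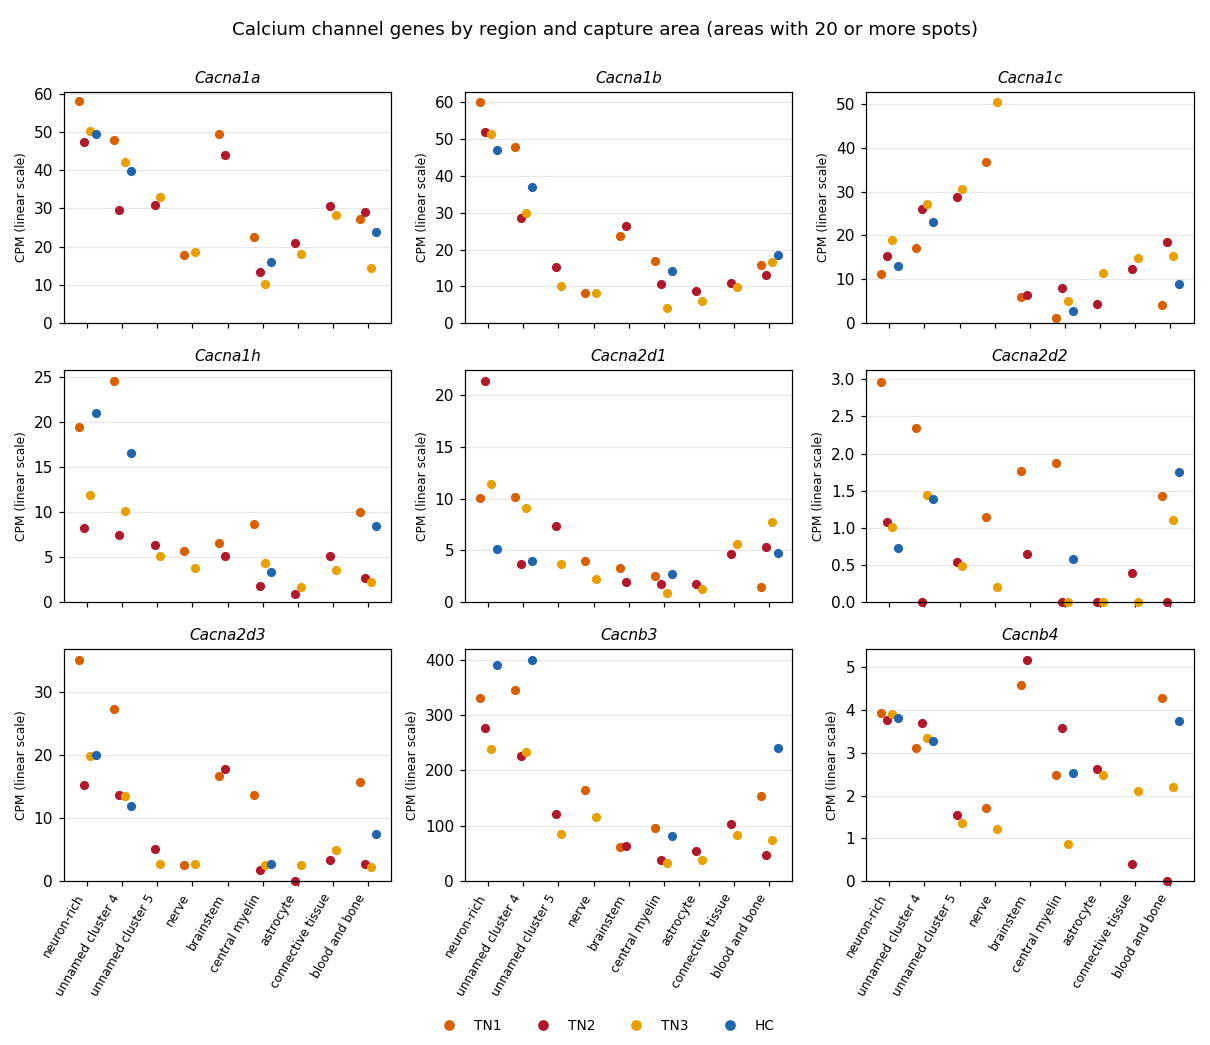
Level of each calcium channel gene (CPM, linear axis from 0, one panel a gene) in each region, with a point for each capture area that held 20 or more spots of it. Cacna1c was highest in nerve, at 36.8 and 50.3 CPM, whereas Cacna1b was lowest in nerve and astrocyte spots and highest in neuron-rich spots. Nerve points are those of TN1 and TN3 alone.

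Over the 26 pairs of region and area with 20 or more spots, each member's log2(CPM + 1) was set beside that of genes with a mean of 5 CPM or more, as a description in which the points share libraries and depth. The closest pattern to Cacna1b was that of Slc6a15 (r = 0.97), that to Cacnb3 was Dysf (r = 0.97) and that to Cacna2d3 was Ica1 (r = 0.96). Cacna1c was most like Egfl8 (r = 0.90), followed by Plekhg2 and Cavin3. Cacna2d1 was most like AABR07044631.2 (r = 0.85), followed by Creb3 and Mmd (both r = 0.81). The closest matches of Cacnb4 (Sec14l2) and Cacna2d2 (Fam155b) were also at r = 0.85.

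Whether the compressed side differed from control was asked first in neuron-rich spots. No member passed the test there (edgeR quasi-likelihood test, Benjamini-Hochberg adjusted p under 0.05), as none of the 12835 genes tested did (0%). At an unadjusted p under 0.05, 1178 genes stood (9.18%), 1 of them a member, and DESeq2 called 114 genes. All 3 TN areas were above HC for 3 of 9 members, against 27.3% of genes tested, and below HC for 3 of 9, against 29.6%. Of the 3 above HC, Cacna2d2 passed the filter on low counts through TN areas alone. In sums over spots, fewer neurons and less RNA per neuron cannot be told apart. Values in the next paragraphs are CPM scaled by TMM (trimmed mean of M values), and fold changes are fitted log2 differences of TN over HC.

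Cacna2d1, the gabapentin target, gave the highest fitted difference of the 9 genes. It stood at 10.0 CPM in TN1, 20.8 CPM in TN2 and 11.4 CPM in TN3 against 5.30 CPM in HC, so that every TN area was above HC, TN2 by the most. The log2 fold change was 1.42 ± 0.50 (SE), with an unadjusted p of 0.0286 and an adjusted p of 0.54 (edgeR). Without TN1 it was 1.62 and called, with an adjusted p of 0.00621 among 1090 genes (8.44% of those tested). Without TN2, the highest area, it was 1.02 (adjusted p = 0.55), and without TN3 1.58 (adjusted p = 0.96), neither called by edgeR. With log-normalised clusters it was 0.52 (adjusted p = 0.65, edgeR). That clustering left a cluster led by Csrp3, Gal and Vgf unnamed, and so outside the neuron-rich spots. This unnamed cluster held 11, 454 and 151 spots of TN1, TN2 and TN3. Relative to 10000 UMIs of pan-neuronal genes, Cacna2d1 had 5.15, 13.1 and 6.30 UMIs in TN1, TN2 and TN3 and 2.51 in HC. On that scale Cacna1a (29.7, 29.1 and 27.8 against 24.2), Cacna1b, Cacna2d2 and Cacnb4 were likewise above HC in every TN area. The share of all genes above HC on that scale was not computed. Cacna2d2 was also above HC in every TN area (2.95, 1.06 and 1.01 against 0.751 CPM; log2 fold change 1.14 ± 0.84, SE), but from 7 to 28 UMIs an area. Cacna2d3 was high in TN1 alone, at 34.8 CPM against 14.9, 19.7 and 20.7 CPM in TN2, TN3 and HC.

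Cacna1h and Cacnb3 lay below HC in all TN areas. Cacna1h was at 19.3, 8.09 and 11.8 CPM in TN1, TN2 and TN3 and at 21.8 CPM in HC, with TN1 close to HC. Its log2 fold change was −0.74 ± 0.45 (SE; adjusted p = 0.61, edgeR). Without TN1, the TN area closest to HC, it was −1.15 with an adjusted p of 0.0173 (edgeR), among 1090 genes called (8.44%). No gene was called without TN3. Cacnb3 was at 329, 269 and 238 CPM against 404 CPM in HC, with a log2 fold change of −0.53 ± 0.22 (SE; unadjusted p = 0.0528, adjusted p = 0.54, edgeR). Per 10000 pan-neuronal UMIs, Cacnb3 had 169, 170 and 132 UMIs in the TN areas and 191 in HC.

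The other pore genes moved little. Cacna1a stood at 57.8, 46.2 and 50.1 CPM in TN1, TN2 and TN3 and at 51.2 CPM in HC, which lay within the TN range (log2 fold change 0.00 ± 0.21, SE). Cacna1b was slightly above HC in every TN area, at 59.7, 50.6 and 51.3 against 48.7 CPM (0.14 ± 0.20, SE), and Cacna1c spread from 11.1 CPM in TN1 to 19.0 CPM in TN3 around the HC value of 13.6 CPM. Cacnb4 differed least between areas, at 3.67 to 3.90 CPM in TN and 3.96 CPM in HC.

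Other marker lists moved with these values. The 11 nerve injury genes were above HC in every TN area, with a summed level of 1638, 3056 and 1731 CPM in TN1, TN2 and TN3 against 593 CPM in HC (of these, only Npy was at 0, in HC). Macrophage markers summed to 287, 672 and 459 CPM against 164 CPM, and connective tissue markers to 1083, 3340 and 2526 CPM against 1081 CPM. Sensory neuron markers were lower, at 11669, 9866 and 10364 CPM against 13697 CPM. Their part in the TN against HC values of the members was not tested.

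**Figure D2:**
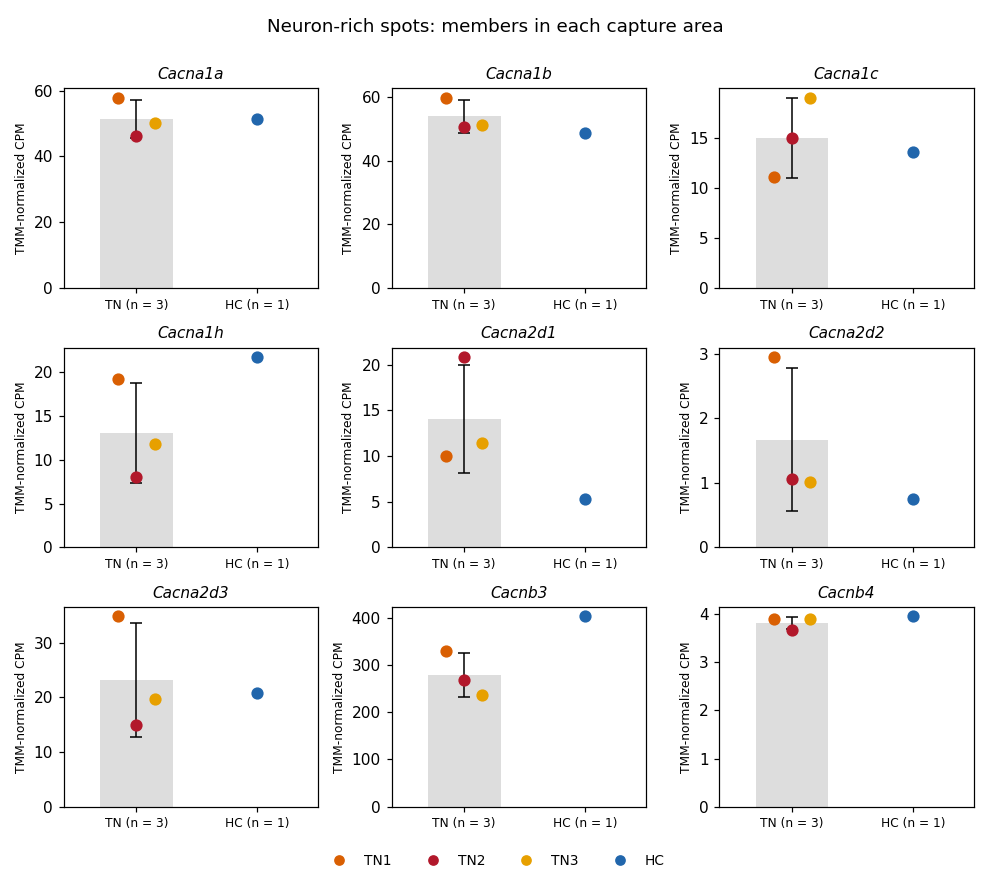
Level of each member in neuron-rich spots (TMM-normalized CPM, axes from 0), with points for capture areas, grey bars for the TN mean and black bars for its SD (n = 3), beside the single HC area. Cacna2d1 was above HC in all TN areas (10.0 to 20.8 against 5.30 CPM), and Cacnb3 was below HC in all of them (238 to 329 against 404 CPM).

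Neuron-rich spots joined 2 clusters, which allowed a comparison inside each TN section. Cluster 2, with Nefl, Tac1 and Scn11a among its leading genes, held all 672 HC spots and 148, 40 and 97 spots of TN1, TN2 and TN3. Cluster 8 was led by Csrp3, Gal, Reg3b, Vip, Vgf and Gap43, genes known from injured neurons, and held 54, 326 and 69 TN spots but none of HC. Nerve injury genes summed to 2716, 3336 and 2810 CPM in cluster 8 and to 1234, 1509 and 1121 CPM in cluster 2 of the same areas. The sensory neuron list shared no gene with the 10 that led cluster 8, which was named from the mean of the whole list.

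Cacna2d1 had the highest ratio of cluster 8 to cluster 2 among the 9 members in every TN area. In cluster 8, it stood at 18.3 CPM in TN1 (95% Poisson interval 13.4 to 24.3), 24.2 CPM in TN2 (21.6 to 26.9) and 22.8 CPM in TN3 (17.3 to 29.6). In cluster 2 of these areas, it stood at 6.99 CPM (5.16 to 9.27), 5.83 CPM (3.19 to 9.79) and 4.97 CPM (3.12 to 7.53), and in HC at 5.12 CPM (4.29 to 6.06). The levels of both clusters were thus apart in every TN section, by ratios of 2.61, 4.14 and 4.59, while cluster 2 of TN lay around HC; intervals cover counting error only. With other cluster numbers or integrated areas, the ratio between the neuron-rich cluster higher in injury genes and the other one stayed between 2.01 and 4.53. With integrated areas, though, that other cluster was above HC in every TN area. It held 6.63, 10.6 and 6.03 CPM in TN1, TN2 and TN3, against 4.81 CPM in HC neuron-rich spots. With log-normalised clusters, the cluster led by injury genes stayed unnamed, and no ratio was taken.

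As a share of spots, a Cacna2d1 UMI was found in 57.4%, 54.3% and 49.3% of cluster 8 spots of TN1, TN2 and TN3, in 26.4%, 25% and 18.6% of their cluster 2 spots and in 16.4% of HC cluster 2 spots. Median depth was 47060.5, 39167 and 35699 UMIs in cluster 8, 49399.5, 57827.5 and 43813 UMIs in cluster 2 of TN and 36011.5 UMIs in HC, so that cluster 8 was the shallower in each section. Central myelin spots, which should lack neuron cell bodies, gave 0.441% to 3.23% at median depths of 4403 to 11342.5 UMIs. After thinning every spot to 2000 UMIs, 3 of 54, 14 of 326 and 7 of 69 cluster 8 spots held a Cacna2d1 UMI, against 1 of 148, 0 of 40 (exact binomial upper limit 8.81%) and 1 of 97 in cluster 2, levels too near a single UMI to read.

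Cacna1h had lower values there, with cluster 8 at 14.0, 7.98 and 9.21 CPM and cluster 2 at 21.4, 10.0 and 13.3 CPM in TN1, TN2 and TN3, but the Poisson intervals of the clusters overlapped in each section. The Cacnb3 ratios of cluster 8 to cluster 2 were 0.877, 0.743 and 0.950, with intervals apart in TN1 and TN2 and overlapping in TN3. Cacna1b ratios were 0.877, 0.743 and 1.01, with intervals apart in TN2 alone. The share of all genes with intervals apart between these clusters was not computed. The Cacna1c ratios were 1.17, 1.56 and 1.15, with overlapping intervals in each section. Cacna1a ratios lay between 0.92 and 1.03, with overlapping counting intervals in each area. The Cacna2d3 ratios were 0.970, 0.669 and 0.838.

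In cluster 2 alone, a comparison added after the clusters were seen, the Cacna2d1 log2 fold change of TN over HC was 0.18 ± 0.38 (SE; adjusted p = 0.91, edgeR), with 7.02, 5.72 and 4.96 CPM in TN against 5.25 CPM in HC. Of 11367 genes tested, 5 were called (0.044%), none a member, and 1014 stood at an unadjusted p under 0.05 (8.92%), also without a member. All TN areas were above HC for 3 of 9 members (26% of genes tested) and below it for 3 (27.4%). Of the 3 above HC, Cacna2d2 passed the filter on low counts through TN1 alone. It had 24, 3 and 6 UMIs in TN1, TN2 and TN3 and 19 in HC. Nerve injury genes were higher in TN in this cluster too. All 9 of them tested were above HC in every TN area, and 2, Csrp3 and Atf3, were called. Cacna1h remained lower at −0.48 and Cacnb3 at −0.37, neither called. Without TN1, Cacna1h was at −0.87 with an adjusted p of 0.0485 (edgeR), among 709 genes called (6.61%). No gene was called without TN3.

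**Figure D3:**
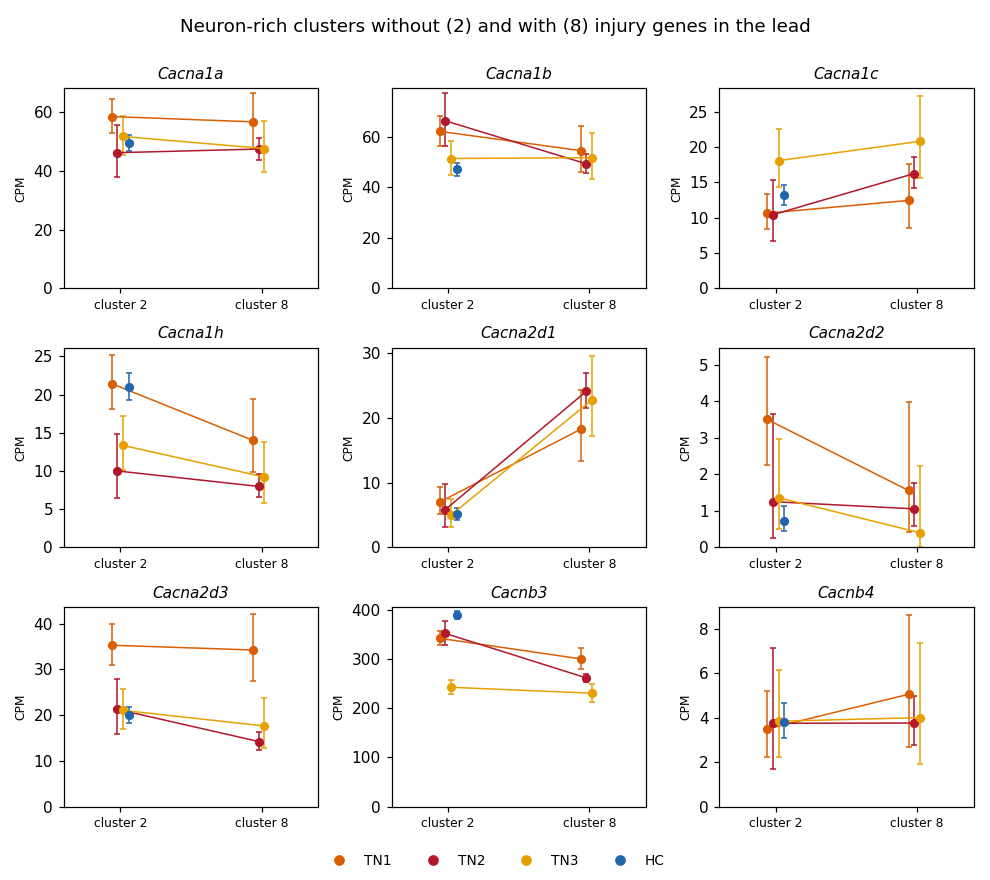
Level of each member (CPM, axes from 0) in neuron-rich clusters 2 and 8, with lines joining the clusters of a TN area and bars for 95% Poisson intervals of the counts; HC had no spots in cluster 8. Cacna2d1 was 2.61 to 4.59 times higher in cluster 8 in the 3 TN areas, and the Cacna1h intervals overlapped.

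The start region of Cacna2d1 is shown beside that of Cacna1c, since Cacna2d1 stood apart in cluster 8 and Cacna1c in nerve. RefSeq gives, on build GRCr8, a start for 7 of the 9 members. Cacna1h and Cacnb4 had no entry. Each window holds the 250 bases before the start, 5′ to 3′ on the gene's strand, with capitals marking GC boxes (GGGCGG or its reverse complement CCGCCC, overlapping matches joined). Cacna2d1 lies on the minus strand at chr4:20330148-20330397, the most upstream of 3 listed starts, and Cacna1c on the minus strand at chr4:154051749-154051998.
Cacna2d1: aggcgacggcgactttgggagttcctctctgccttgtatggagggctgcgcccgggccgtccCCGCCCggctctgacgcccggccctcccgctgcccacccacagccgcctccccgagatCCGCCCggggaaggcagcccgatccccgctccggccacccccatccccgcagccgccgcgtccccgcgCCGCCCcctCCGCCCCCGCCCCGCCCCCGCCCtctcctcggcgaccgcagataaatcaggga
Cacna1c: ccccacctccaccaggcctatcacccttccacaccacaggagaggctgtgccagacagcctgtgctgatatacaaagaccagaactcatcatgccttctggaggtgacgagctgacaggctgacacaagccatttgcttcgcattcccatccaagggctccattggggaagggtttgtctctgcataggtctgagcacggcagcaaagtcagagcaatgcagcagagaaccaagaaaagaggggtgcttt
The Cacna2d1 window held 7 GC boxes and was 77.2% G and C, whereas that of Cacna1c held 0 and was 54.4%. GC boxes were not particular to Cacna2d1, since among the 7 windows only that of Cacna1c lacked them. Cacna1a held 1, Cacna2d2 2, Cacna1b and Cacnb3 3 each and Cacna2d3 4. The G and C content of these windows ran from 72.0% in Cacna1b to 78.8% in Cacna2d3. Of 33469 such windows of rat genes, 30.5% held a GC box, and the median GC content was 51.2%. An AP-1 motif (TGACTCA or its reverse complement TGAGTCA), named for the family of Jun and Atf3, stood in none of the 7 windows and in 4.05% of all. The palindromic CRE (TGACGTCA) was in none of the 7 and in 1.59% of all.

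Nerve spots could not be tested in these clusters because TN2 and HC held too few, so the comparison was made in clusters of integrated areas, chosen after the numbers of spots were seen. These gave 400, 213 and 515 nerve spots in TN1, TN2 and TN3 and 217 in HC. Without integration, the nerve region held 12 spots of TN2 and 17 of HC, so most of these TN2 and HC spots lay outside it. Of 11505 genes tested, 278 were called (2.42%), 20 higher and 258 lower in TN, and 1 of the 8 members tested was among them. Cacna1b stood at 8.55, 11.01 and 7.27 CPM in TN against 35.7 CPM in HC, a log2 fold change of −1.99 ± 0.31 (SE; adjusted p = 0.0484, edgeR). The call was lost without TN2 (adjusted p = 0.0576) and without TN3 (adjusted p = 0.142), with 8 clusters (−1.53, adjusted p = 0.20), under another scaling (adjusted p = 0.0578 with DESeq2 size factors) and after removing mitochondrial, hemoglobin and ribosomal protein genes (adjusted p = 0.0639), whereas without TN1 it held (−1.94, adjusted p = 0.00515; edgeR for each).

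The further members were mostly below HC in nerve spots too, without a call. Cacnb3 was at 182, 107 and 92.1 CPM against 396 CPM (−1.64 ± 0.39, SE; adjusted p = 0.083, edgeR), and Cacna2d3 at 3.36, 4.43 and 1.85 CPM against 11.9 CPM (−1.89 ± 0.55, SE; adjusted p = 0.12, edgeR). Without TN1 both were called, at −1.97 (adjusted p = 0.00181) and −1.89 (adjusted p = 0.0412; edgeR for both), among 2203 genes (19.1%). No gene was called without TN2 or without TN3. Cacnb4 rested on 7, 12 and 8 UMIs in TN1, TN2 and TN3 and 12 in HC, and passed the filter on low counts through HC alone. With it, all TN areas lay below HC for 6 of 8 members, against 35.9% of genes tested. Cacna1c alone was above HC in all of them (34.4% of genes tested), with 38.8, 32.0 and 49.0 CPM in TN and 27.3 CPM in HC (0.55 ± 0.32, SE; adjusted p = 0.34, edgeR), and Cacna2d1 showed neither direction (4.58, 6.15 and 2.71 against 5.15 CPM).

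Neuronal markers moved with these values. In the same spots, sensory neuron markers summed to 2114, 2926 and 1501 CPM in TN and to 8795 CPM in HC, and pan-neuronal markers to 3090, 4643 and 2347 CPM against 11893 CPM. Pou4f1 was at 0 in TN2, TN3 and HC. Of the sensory neuron list, 6 of 11 genes tested were called lower. Their part in the Cacna1b, Cacnb3 and Cacna2d3 values was not tested.

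**Figure D4:**
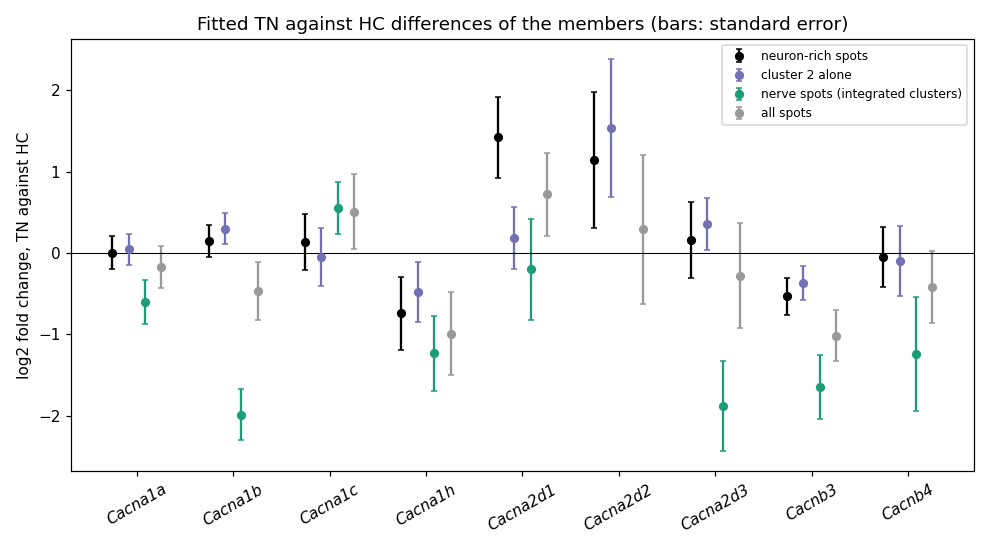
Fitted log2 fold change of TN over HC for each member, with bars for the standard error, in neuron-rich spots, cluster 2 alone, nerve spots of the integrated clusters and all spots. Cacna2d1 was at 1.42 in neuron-rich spots and at 0.18 in cluster 2, and Cacna1b was at 0.14 in neuron-rich and at −1.99 in nerve spots; Cacna2d2 was not tested in nerve.

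Brainstem spots were absent from TN3 and HC and gave no test. In central myelin, 6 members could be tested (not Cacna2d1, Cacna2d2 or Cacnb4) and none was called, as none of 9040 genes was (0%; edgeR, 280 at an unadjusted p under 0.05, or 3.1%, and 3 called by DESeq2). No member had all TN areas above HC or all below it, against 20.3% and 21% of genes tested. Over all spots, none of 14902 genes was called by edgeR (0%), with 1271 at an unadjusted p under 0.05 (8.53%) and 164 called by DESeq2. All TN areas were above HC for 1 member, Cacna2d1, against 28.7% of genes tested, and below it for 4, against 30.6%. There Cacnb3 stood at 218, 168 and 137 CPM in TN against 353 CPM in HC, with a log2 fold change of −1.02, or of −1.21 without TN1. Cacna1h was at −0.99, and at −1.45 without TN1. Per 10000 pan-neuronal UMIs over all spots, Cacna2d1 had 5.64, 12.6 and 7.63 UMIs in TN1, TN2 and TN3 and 2.85 in HC. A level above HC in every TN area was not particular to Cacna2d1 on this scale. Cacna1a (38.0, 40.2 and 43.9 against 25.5), Cacna1b, Cacna1c, Cacna2d2, Cacna2d3 and Cacnb4 had it too. Cacna1h had 11.6, 6.99 and 8.75 against 10.4, and Cacnb3 had 184, 186 and 181 against 209. The divisor itself was lower in TN, at 281915, 363176 and 242379 pan-neuronal UMIs of 23546025, 38769935 and 32239597 in all. HC had 669741 of 41335930. In plain CPM over all spots, Cacna1a was at 45.4, 37.7 and 33.0 in TN against 41.3 in HC. The share of all genes above HC on the pan-neuronal scale was not computed.

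Of 17 other genes named for calcium channel subunits, 8 could be tested in neuron-rich spots and none was called. Their median log2 fold change was −0.26 against 0.03 for all genes. That median also covers Cacng genes such as Cacng2, so it is not one of channel subunits alone. Cacna1f, an L-type pore gene known from photoreceptors, had 0.105, 0.249 and 0 CPM in TN against 2.10 CPM in HC (−3.77 ± 0.88, SE; adjusted p = 0.54, edgeR). These values came from 1, 4 and 0 UMIs in TN and 53 in HC, so the gene was tested through its HC counts. Neuron-rich spots held only 50% of its UMIs in the HC area. Cacng2, for an auxiliary protein of AMPA receptors, was below HC in all TN areas (1.79, 0.684 and 2.02 against 2.89 CPM). The largest fitted rises were those of the T-type pore gene Cacna1g (0.56) and of Cacng7 (0.31).

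Transmitter release is the step that N- and P/Q-type channels serve. In 10 of 14 tested genes of its machinery, all TN areas were below HC, against 29.6% of all genes tested, with a median log2 fold change of −0.40, and none was called. The sensory neuron markers moved the same way, with 8 of 12 below HC in every TN area and a median of −0.33, and their part in these values was not tested. Vamp1, a vesicle fusion protein, stood at 691, 345 and 645 CPM against 1099 CPM in HC (−0.97 ± 0.37, SE; adjusted p = 0.54, edgeR), and the active zone scaffold Pclo was likewise at −0.97. Erc2 and Stx1a had the highest fitted values, at 0.49 and 0.14.

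Calcium sensors, beside the same marker values, had 10 of 14 genes below HC in every TN area (29.6% of all genes tested) and a median of −0.42. Hpca (−1.12) and Hpcal1 (−0.83), neuronal calcium sensors, were the lowest, and the kinase Camk2d was the highest, at 111, 140 and 109 CPM against 74.8 CPM (0.68 ± 0.23, SE; adjusted p = 0.54, edgeR), ahead of Calm2 (0.18). Among 12 tested genes of calcium clearance and stores, the median was −0.29, with the plasma membrane pump Atp2b4 at 0.65 and Itpr3 at 0.39, and Ryr1 at −0.93 and the pump Atp2b3 at −0.78. None of these passed the test.

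Proteins known to bind α2δ subunits differed by kind. The matrix glycoproteins Thbs2 and Thbs4, thrombospondins of connective tissue and injured nerve, were high in TN2 and TN3 and near HC in TN1. Thbs2 stood at 10.9, 121 and 78.5 CPM in TN1, TN2 and TN3 against 7.67 CPM in HC (3.19 ± 1.29, SE; adjusted p = 0.54, edgeR), and Thbs4 at 6.75, 49.2 and 58.8 CPM against 6.88 CPM (2.47). Connective tissue markers were likewise higher in TN2 and TN3. The receptor gene Grin1 was below HC in every TN area, at −0.77. Of the 9 listed partners, 6 could be tested, with a median of 0.46 and no call.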

How the data were processed

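The submitters ran 10x Visium on 1 slide with 4 capture areas. UMI counts per gene and spot were made by the authors with Space Ranger 1.2.0 (STAR is named in their processing notes) and deposited as whole numbers, unnormalized, in 1 matrix whose barcode suffix gives the area. Genome build, annotation and any equalizing of depth between areas: not given in the sources used here.

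Genes detected in 10 or more spots (16088) were normalized for clustering by SCTransform in R 4.3.3 (Seurat 5.3.0 with sctransform 0.4.2). The 3000 most variable genes, less the calcium channel subunit genes (4 of them were among these), gave 30 principal components and, by K-means with 50 starts, 10 clusters. A cluster was named by the marker list with the highest mean of centred log2(CPM + 5), if it led the next list by 0.25.

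UMIs were summed per region and area (20 or more spots) and tested by the quasi-likelihood method of edgeR 4.0.16 after TMM scaling and filterByExpr (2 residual degrees of freedom), two-sided, with Benjamini-Hochberg adjustment over all genes tested. DESeq2 1.42.0 and other choices were run as alternatives, and the test was tried on simulated data. Of list symbols, 2 were not found. Nothing says that the pieces of an area were prepared separately, so p-values measure the spread between areas, which may be technical. Named genes were the members and, of each list, the 2 highest and 2 lowest fitted values in neuron-rich spots, of which 1 is not reported here. The members, lists and tests were chosen with earlier results of these data known.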

Additional observations from a re-analysis of the deposited data

Results flagged for a closer look

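Cacna1b had fitted values of opposite sign in 2 regions, of which only that in nerve spots was called. Its log2 fold change of TN over HC was 0.14 ± 0.20 (SE) in neuron-rich spots, with all 3 TN areas above HC, and −1.99 in nerve spots of the integrated clusters, with all 3 below HC. The difference between the regions was not tested, and the regions come from different clusterings. In the same nerve spots, the tested pan-neuronal genes had a median log2 fold change of −1.79 and the tested sensory neuron genes one of −2.03. In neuron-rich spots these medians were 0.096 and −0.33. The part of the neuronal markers in the Cacna1b values was not tested. In neuron-rich spots of the integrated clusters, Cacna1b in TN3 (48.5 CPM) was below HC (49.4 CPM), so not all TN areas were above HC there.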

How the results depend on the processing

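No paired analysis was possible because HC was a single area that held tissue of different animals together. In neuron-rich spots, the count of called genes was 0 and became 114 with DESeq2, 29 with no filter on low counts, 5 with log-normalised clusters and 1 in the spots ranked highest by sensory neuron markers, and it ran from 0 to 1090 when a TN area was left out, highest without TN1. In central myelin it was 0, 3 with DESeq2 and 1 with no filter. In nerve spots it was 278, and 0 with DESeq2 size factors, after removing hemoglobin, mitochondrial and ribosomal protein genes and with 8 clusters, 812 with DESeq2 and 616 with no filter, and 0 to 2203 on leaving out an area. Nerve spots could not be tested with 12 clusters or log-normalised clusters. Over all spots it was 0, 164 with DESeq2 and up to 2171 without TN1. In cluster 2 alone it was 5, 78 with DESeq2, 108 with no filter and 0 to 709 on leaving out an area. The causes were not tested.

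Values near 0 changed sign. Cacna1a in neuron-rich spots went to −0.0014 with DESeq2 size factors, −0.015 with DESeq2, −0.020 with no filter, −0.0070 with 8 clusters, −0.0023 with integrated areas, and it ran from −0.094 without TN1 to 0.092 without TN2. There Cacna2d3 ran from −0.27 without TN1 to 0.42 without TN2, Cacna1c from −0.029 without TN3 to 0.30 without TN1, and Cacnb4 was at 0.058 in the highest ranked spots. In central myelin Cacna1a ran from −0.46 without TN1 to 0.11 without TN3 (0.025 without TN2), and went to 0.071 with 12 clusters, 0.23 with log-normalised clusters and 0.0070 with integrated areas. In nerve, Cacna2d1 went to 0.12 without TN3 and 0.38 with 8 clusters. Over all spots Cacna2d2 ran from −0.53 without TN1 to 0.62 without TN3, and Cacna2d3 from −0.90 without TN1 to 0.0094 without TN3. In cluster 2 alone, Cacna1a went to −0.0038 with no filter and −0.057 without TN1, and Cacna1c ran from −0.37 without TN3 to 0.12 without TN1 (0.067 without TN2). Cacna2d1 in neuron-rich spots, Cacna1b in nerve, and Cacnb3 and Cacna1h in neuron-rich, nerve and all spots kept their direction under every alternative run.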

Other observations

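In nerve spots of the integrated clusters, where neuronal marker sums were lower in TN, the lists around the channels differed in their calls. Of 13 tested genes of transmitter release, 5 were called lower in TN and none higher (edgeR, against 2.42% of all genes called), with a median log2 fold change of −1.76. Calcium sensors had 1 of 14 called lower, with a median of −0.87, and calcium clearance and stores had none of 9 called, with a median of −0.70. The partners of α2δ subunits had fitted values higher in TN for 5 of 7 genes, all TN areas above HC for 5 (34.4% of all genes tested), 1 gene called lower and a median of 0.82. The part of the neuronal markers in these values was not tested.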
